A study of Populus tremula with 16 samples.

Results

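In leaves of Populus tremula, the European aspen, 270 gene IDs had at least 1 count in each of the 4 libraries of July and August 2011 and 0 counts in each of 5 libraries from 18 September to 1 October. They were selected on these measured counts, out of 41335 IDs in all and out of 19967 IDs with a count in each of the 4 summer libraries, of which they make up 1.35%. Their July, August and late values are therefore a description and support nothing by themselves. The 6 libraries of 2 to 15 September played no part in the choice, and the course over those dates is what the choice left free.

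The study followed leaf tissue through autumn senescence with 1 RNA sequencing library per date, on 16 dates over 66 days. The dates are grouped here into July and August (27 July and 5, 19 and 31 August, n = 4), early September (2, 5, 9, 11, 13 and 15 September, n = 6) and late leaves (18, 22, 26 and 28 September and 1 October, n = 5). The labels name no genotype or treatment, and they do not say whether leaves came from 1 tree or were pooled. Each date has 1 library, so the scatter between libraries mixes true change between dates with technical error. The library of 19 September was not used, as the rule of the choice leaves it out. None of its 18378 IDs with a count exceeded the count of 18 September, so whether it is a separate sample is uncertain.

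Autumn senescence is the ordered dismantling of the leaf before it is shed. Chloroplasts are taken apart, nitrogen and other nutrients move into the stem and buds, and transcripts of photosynthesis and growth typically give way to those of breakdown and transport. In aspen its timing is tied to the shortening days of autumn. The tables hold no names or roles for these IDs, so the 270 are described by their levels, timing and neighbouring ID numbers, and the label of leaf could not be set against marker genes.

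All levels below are CPM (counts per 1000000 counts of the library), scaled by edgeR's TMM method, a trimmed mean of log ratios that sets the libraries to a common reference. Totals ranged from 719419 counts on 11 September to 6729131 counts on 5 August. After scaling, the effective size was 15942707 counts over the 4 summer libraries, 19189802 over the 6 September libraries and 16231525 over the 5 late ones. By effective size the late libraries together were thus as deep as the summer ones. Their TMM factors (effective size over total) were 1.12 to 1.54, against 0.66 to 0.67 in summer. By raw totals the late libraries together were shallower than the summer ones. Their combined 0 allows up to 3 counts, or 0.185 CPM, an upper limit that covers counting error only. In leaf tissue as a whole, fewer cells of a type and less RNA per cell cannot be told apart.

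Most of the 270 IDs were weakly expressed in summer. Their summed July and August counts ran from 4 to 244 with a median of 12, and the quartiles were 8 and 20. The median pooled summer level was 0.753 CPM, against 4.58 CPM for all IDs counted on each summer date. Only 32 IDs had a mean above 2 CPM, 4 had a mean above 5 CPM and 3 had a mean above 10 CPM, while 173 stayed below 1 CPM. The 10 IDs with the most counts held 22.9% of the 5164 summer counts of the set.

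Silence in late leaves was commonest among the IDs with the fewest summer counts. Of 979 IDs with 4 to 9 summer counts, 92 (9.4%) were silent late. The share was 4.51% of 2215 IDs with 10 to 19 counts and 1.41% of 4477 IDs with 20 to 49 counts. It was 0.259% of 4256 IDs with 50 to 99 counts, or 11 IDs, and 0.0498% of 8040 IDs with 100 counts or more, or 4 IDs. The rule therefore gathers mainly faint transcripts, and for these a 0 bounds the fall only loosely.

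**Figure D1:**
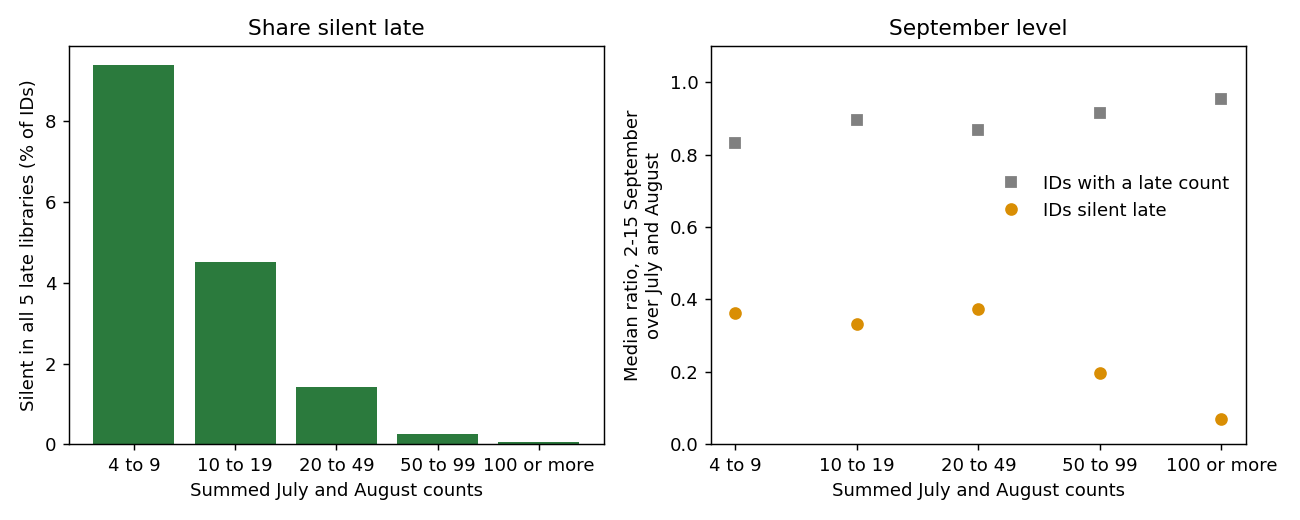
Left, the share of IDs silent in all 5 late libraries by their summed July and August counts. Right, the median ratio of the 2 to 15 September level to the July and August level in the same classes, for silent IDs (circles) and for IDs with a late count (squares). The silent share falls from 9.4% to 0.0498%, and the circles lie below the squares in every class.

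Against the late limit of 3 counts, the pooled summer level of 246 IDs was at least 2-fold higher, that of 146 IDs at least 4-fold higher and that of 36 IDs at least 10-fold higher. For 11 IDs the bound was at least 20-fold. The median bound was 4.07-fold and the bounds ran from 1.36-fold to 82.8-fold. Had summer levels lasted on the TMM scale, the late libraries would have held 12.2 counts for the median ID and at least 3 counts for all 270. By library totals these expected counts and the bounds would be lower, and they were not computed. These summer levels are raised for the faintest IDs, since the choice required a count on each summer date.

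The edge of the rule can be seen in single IDs. Just inside it lie Potri.005G177600, Potri.005G255200 and Potri.007G140800, each with 1 count in each summer library and a summer mean of 0.253 ± 0.0282 CPM (SD, n = 4). Over 2 to 15 September they had 5, 0 and 5 counts, too few to set their late 0 apart from their September level. Just outside it lie 332 IDs with 1 late count in total. The one with the highest summer level was Potri.001G348900, with 6443 summer counts, 78 counts over 2 to 15 September and 1 count on 18 September. Potri.010G211500 followed with 161 summer, 31 September and 1 late count, the last on 18 September. Potri.010G214300 had 145 summer and 48 September counts, and its late count came on 22 September. A single read thus kept out IDs with larger falls than most of those chosen.

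Most 0 values on 18 September did not last through the later dates. Of the IDs counted on each summer date, 1010 were at 0 on 18 September, and 740 of these were counted again on a later date. The remaining 270 (26.7%) are the IDs described here, and a 0 on the other late dates was not followed in this way. In the opposite direction, 187 IDs were at 0 in the 4 summer libraries and counted in each of the 5 late ones. The number of IDs counted in each late library was not computed, so the 187 cannot be set against the 270 as a share.

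As a set, the 270 IDs stood high in July and August, were lower by 2 September and stayed lower until 15 September. The summed level was 417 CPM on 27 July, 270.5 CPM on 5 August, 378 CPM on 19 August and 224 CPM on 31 August. The 6 September libraries gave 86.7 CPM on the 2nd, 145 CPM on the 5th, 74.5 CPM on the 9th, 89.4 CPM on the 11th, 89.9 CPM on the 13th and 64.2 CPM on the 15th. All 6 September values lay below all 4 summer values. The means were 322 ± 90.1 CPM in summer (SD, n = 4) and 91.6 ± 28.1 CPM in September (SD, n = 6), a summer mean 3.52 times the September mean. The summer side of this ratio was part of the choice, so it carries no test.

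**Figure D2:**
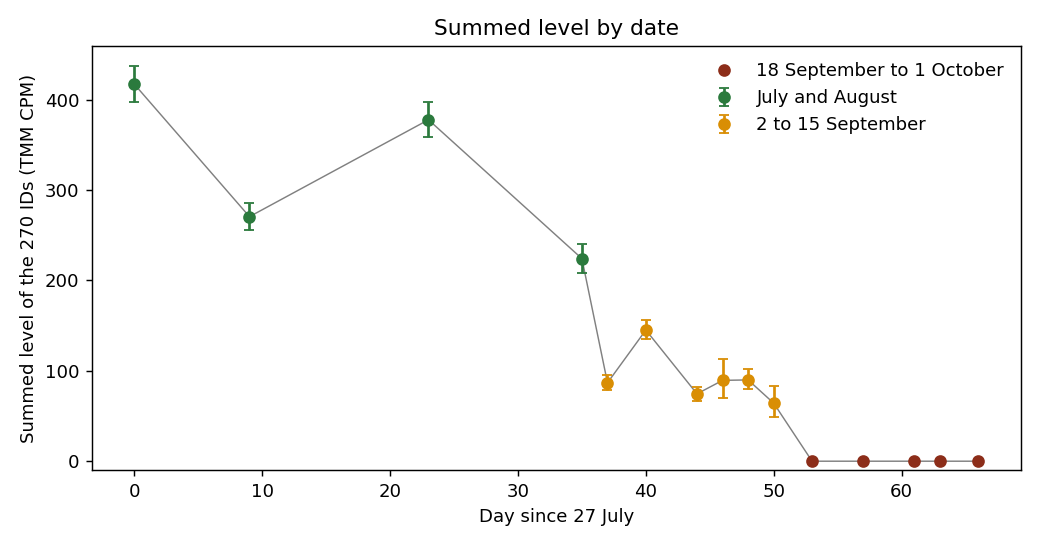
Summed level of the 270 IDs in each of 15 libraries (TMM CPM, linear axis) against the day since 27 July. Error bars are exact 95% Poisson intervals of the summed counts and cover counting error only. The level goes from 224 CPM on 31 August to 86.7 CPM on 2 September, stands at 145 CPM on 5 September and is 0 from 18 September by the rule.

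The step at the turn of the month spanned 2 days. The summed counts were 773 on 31 August (exact 95% Poisson interval of the level 209 to 240 CPM) and 414 on 2 September (78.6 to 95.5 CPM), a ratio of 2.58. The composition of the libraries moved at the same point. The 10 most abundant IDs of the series held 83.4% to 84.1% of the counts in summer and 77.3% on 2 September, and the TMM factor went from 0.67 to 1.04. With library totals alone the ratio across the step was 1.67, and the summer mean was 2.27 times the September mean. The part of this shift in the step was not tested. Of the counts outside those 10 IDs, the set held 0.0942% on 31 August and 0.0395% on 2 September.

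The library of 5 September stood between summer and the other September dates. On the TMM scale its summed level was 145 CPM (exact 95% Poisson interval 135 to 156 CPM). That was above 2 September, 3 days before, by a factor of 1.67. With library totals alone it stood at 121 CPM, against 89.8 CPM on 2 September and 107 CPM on 13 September, the highest of the other dates. Of 234 IDs of the set with a count on either date, 141 (60.3%) were higher on 5 September and 93 were lower. Among the 19629 other summer IDs with a count on either date, 51.4% were higher. In that library the 10 most abundant IDs held 81.5% of the counts, against 74.9% to 77.3% on the other 5 September dates. Whether this composition moved the level, and whether dates were exchanged, was not tested. Of the counts outside those 10 IDs, the set held 0.0654% on 5 September and 0.0302% to 0.0437% on the other 5 September dates. Without 5 September the September mean was 80.9 ± 11.3 CPM (SD, n = 5), and the summer mean was 3.98 times that.

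From 2 to 15 September the summed values did not run steadily downward. Pooled over 2, 5 and 9 September the level was 103 CPM from 1493 counts, and over 11, 13 and 15 September it was 84.7 CPM from 392 counts. The first pool holds the 145 CPM of 5 September. Its other dates stood at 86.7 and 74.5 CPM, within the range of 64.2 to 89.9 CPM of the second pool. The lowest value, 64.2 CPM on 15 September, rested on 59 counts, and its exact 95% Poisson interval of 48.9 to 82.8 CPM overlapped those of 2, 9, 11 and 13 September. Had the level pooled over the 6 September libraries (1885 counts) lasted, 18 September would have held 478 counts of the set. The observed count of 0 on that date is set by the rule.

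Single IDs differed in how much of their summer level they kept in September. The ratio of the pooled September level to the pooled summer level had a median of 0.332 and quartiles of 0.166 and 0.552. It was below 0.1 for 45 IDs, from 0.1 to 0.5 for 147 IDs, from 0.5 to 1 for 66 IDs and above 1 for 12 IDs. In all, 258 of the 270 (95.6%) were lower in September than in summer. Of the 19697 other IDs with a count on each summer date, 58.5% were lower, with a median ratio of 0.925. At equal summer counts the medians were 0.363 for the set and 0.831 for the others at 4 to 9 counts, and 0.374 and 0.869 at 20 to 49 counts. These contrasts share the summer libraries with the choice, and the set and the others were split by their late counts. They carry no test.

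Detection by date moved with depth as well as with level. In order of the 6 September dates, 169, 215, 149, 57, 128 and 52 of the 270 IDs had a count. Those are 62.6%, 79.6%, 55.2%, 21.1%, 47.4% and 19.3% of the set. Of the other summer IDs, which had a higher median summer level, 98.1%, 98.6%, 97.7%, 83.3%, 95.8% and 84.3% had a count. The dates with the fewest, 11 and 15 September, were the shallowest, with effective sizes of 805178 and 919410 counts against 2902989 to 4955679 on the other 4. At the summer level, Poisson counting would have given 254, 255, 254, 136, 231 and 146 detected IDs on these 6 dates. Each observed number was below that. At each ID's own pooled September level the expected numbers were 184, 186, 184, 63, 148 and 69.9. The observed number exceeded this expectation on 5 September and fell below it on the other 5 dates. The expectation rests on the same 6 libraries, so the high level of 5 September raises it on the other 5 dates.

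Depth was then made equal by thinning each library to 164929 counts, leaving the 10 most abundant IDs aside. The expected number of detected IDs was 53.1, 79.7, 45.6, 57, 53.3 and 44.8 in date order. On the 4 summer dates it was 141, 104, 134 and 107. A count on each summer date was required by the rule, so the summer numbers are not free of the choice.

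**Figure D3:**
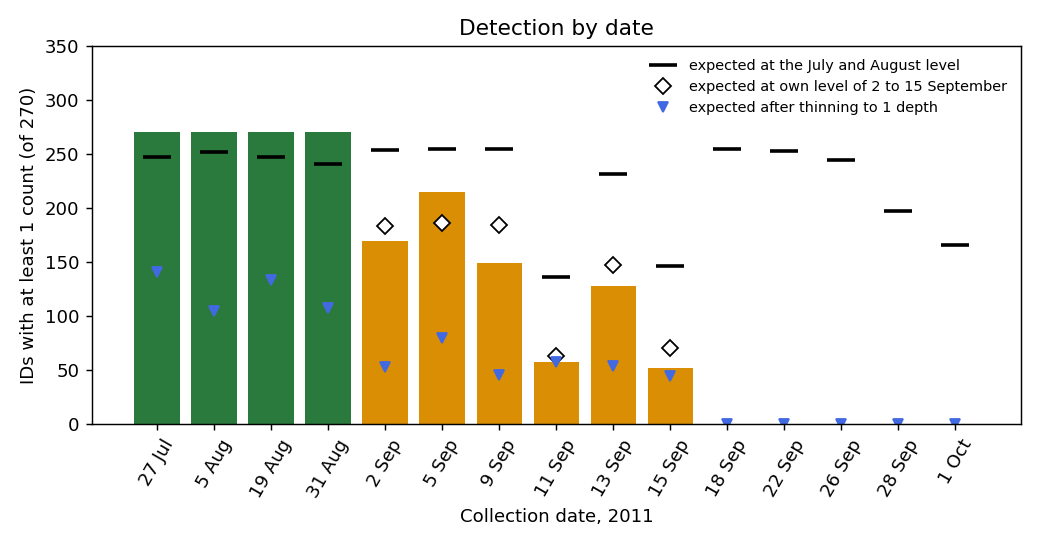
Number of the 270 IDs with at least 1 count on each date (bars, coloured by period). Dashes give the number expected by Poisson counting at the July and August level, diamonds the number expected at each ID's own pooled level of 2 to 15 September, and triangles the number expected after thinning to 1 depth. Bars are short on 11 and 15 September, whereas the triangles lie between 44.8 and 57 from 2 to 15 September other than on the 5th.

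The last date with a count was 31 August for 25 IDs, which had no count in any September library. In September it was the 2nd for 5 IDs, the 5th for 32, the 9th for 42, the 11th for 14, the 13th for 100 and the 15th for 52. So 245 of the 270 IDs were still counted after August and 152 were last counted on 13 or 15 September. Many of these dates rest on single reads. With 3 counts needed for detection, 138 IDs were detected after August, and the median last date moved from 13 September to 5 September with 2 counts and to 2 September with 3. Only 9 IDs were counted on all 6 September dates, and 29 were counted on 1 of them. At the summer level, Poisson counting would have put the last count on 15 September for 146 IDs, on 13 September for 98.9, on 9 September for 14.6 and on 31 August for 0.142. The required count on each summer date raises the summer level of faint IDs, so the gap between observed and expected dates is in part set by the choice.

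**Figure D4:**
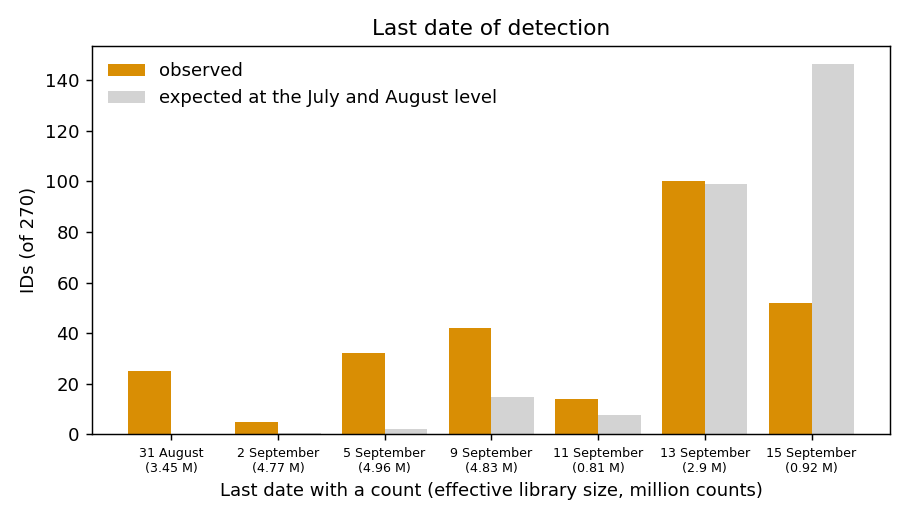
Last date with a count for the 270 IDs, observed (orange) and expected by Poisson counting at the July and August level (grey), with the effective library size under each date. Observed IDs exceed the expectation from 31 August to 11 September, 25 against 0.142 on 31 August, and fall short on 15 September, with 52 against 146; the gap is in part set by the choice of IDs counted on each summer date.

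The last date also moved with abundance. The median of the summer counts was 8 for IDs last counted on 31 August and also for those of 2 September, and 9.5 for those of 5 September. It was 10 for the 9th, 16.5 for the 11th, 14 for the 13th and 17 for the 15th, so the order by date is in part, though not strictly, an order by level. Among all summer IDs, 34 were at 0 in the 6 September libraries, of which 25 were also at 0 late and 9 were counted again in late leaves.

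The IDs of highest summer level show several courses. Potri.010G196700 and its numbered neighbour Potri.010G196800 led the set. Potri.010G196700 had 78, 53, 88 and 25 counts on the summer dates in order, then 2 on 2 September, 4 on 5 September and 0 on the other September dates. Potri.010G196800 had 84, 53, 68 and 28 counts in summer, then 1, 3, 0, 0, 1 and 0 over the 6 September dates. Both were already lowest in summer on 31 August and nearly gone 2 days later.

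Their summer means were 15.2 ± 6.88 and 14.5 ± 5.71 CPM (SD, n = 4), and their September means 0.204 ± 0.34 and 0.193 ± 0.247 CPM (SD, n = 6). Late leaves were at least 82.8-fold and at least 79.1-fold below the summer level, the widest bounds of the set. The sources do not say how reads that match both IDs were assigned, so how far these are 2 separate measurements is uncertain. The third ID of this run, Potri.010G196900, was faint throughout, with 2, 2, 4 and 4 summer counts and 2 counts on each of 2, 5 and 9 September.

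Potri.001G086900 kept some expression into the first days of September. It had 72, 37, 55 and 22 counts in summer, 12 on 2 September and 14 on 5 September, then 0, 0, 1 and 0. Its level went from 11.6 ± 5.33 CPM in summer (SD, n = 4) to 0.947 ± 1.34 CPM in September (SD, n = 6), and the September counts lay almost wholly on the first 2 dates. Potri.013G074400 followed a like course at a lower level, with 22, 18, 27 and 5 counts in summer and 3, 11, 0, 0, 1 and 0 in September.

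Others were highest on 5 August. Potri.004G015300 had 17, 65, 19 and 5 summer counts, so that its level of 14.4 CPM on 5 August stood above 4.26, 4.77 and 1.45 CPM on the other dates. In September it had 7, 8, 0, 1, 0 and 0 counts. Potri.002G015100 had 16, 32, 11 and 9 summer counts and then 8, 8, 2, 1, 2 and 0. Potri.005G131100 had 13, 32, 2 and 12 summer counts and in September was counted only on the 5th, with 6 counts. For these IDs summer itself was uneven, with coefficients of variation of 0.907, 0.504 and 0.754, against 0.188 for Potri.015G103300.

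Potri.015G103300 was the steadiest of the 10 IDs of highest summer level and was counted on each date until 13 September. It had 20, 21, 14 and 12 summer counts and 9, 14, 11, 2, 10 and 0 counts in September. That is 4.16 ± 0.782 CPM in summer (SD, n = 4) and 2.15 ± 1.18 CPM in September (SD, n = 6). With its pooled September level kept, 11.7 counts would have been expected on 18 September, where the rule required 0. Its 0 on 15 September came from a library in which 1 count is worth 1.09 CPM, so a lower level on that date was not detectable.

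The other 2 IDs with 30 or more September counts were chosen for mention after their values were seen. Potri.011G156300 had 9, 7, 14 and 13 summer counts and 7, 13, 12, 1, 10 and 2 counts in September, a ratio of 0.869. Potri.012G093800 had 15, 6, 20 and 10 summer counts and 7, 6, 8, 2, 7 and 0 in September, a ratio of 0.489. The first stood near its summer level in September and the second below 0.5 of it. Against the late limit of 3 counts, the pooled September level of Potri.011G156300 was at least 12.7-fold higher, that of Potri.012G093800 at least 8.46-fold and that of Potri.015G103300 at least 13-fold.

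**Figure D5:**
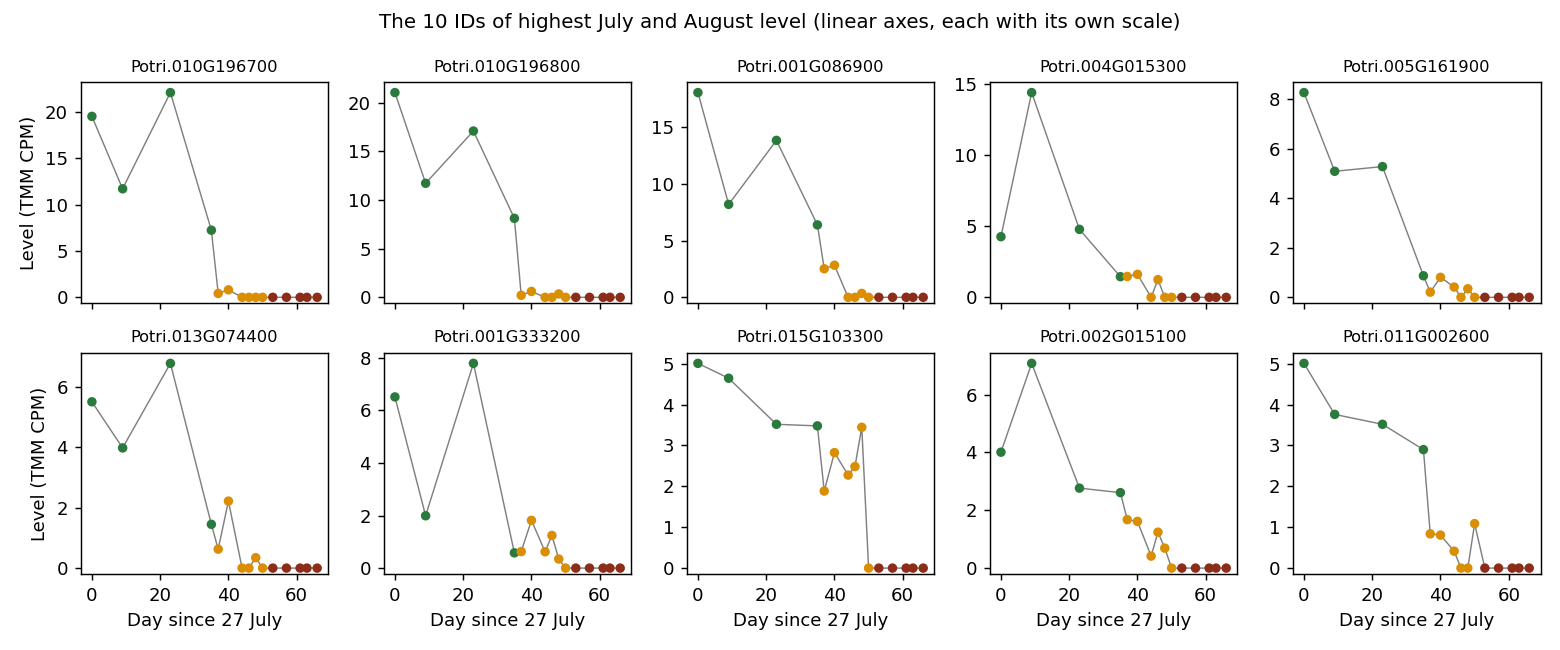
Level (TMM CPM) of the 10 IDs of highest July and August mean in each of 15 libraries against the day since 27 July, in the period colours of the other plots (green July and August, orange 2 to 15 September, red late). Most panels lie near 0 after 31 August, whereas Potri.015G103300 stays between 1.89 and 3.44 CPM from 2 to 13 September.

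The remaining IDs among the 10 highest lay in between. Potri.005G161900 had 33, 23, 21 and 3 summer counts and 1, 4, 2, 0, 1 and 0 in September. Potri.001G333200 had 26, 9, 31 and 2 summer counts and 3, 9, 3, 1, 1 and 0 in September. Both were at their summer low on 31 August, at 0.87 and 0.58 CPM, so that their low values began before September. Potri.011G002600 was lower on each successive summer date, with 20, 17, 14 and 10 counts, and had 4, 4, 2, 0, 0 and 1 in September, with its last count on 15 September.

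Among the IDs last counted on 31 August, Potri.018G042100 had the highest summer level, with 19, 5, 9 and 3 counts. Its mean was 2.25 ± 1.78 CPM (SD, n = 4), and 0 counts over the 6 September libraries allow up to 3. Potri.008G035900 came next with 9, 8, 2 and 1 counts. Both had their lowest summer level on 31 August. For most of the 25 IDs of this group the summer counts were too few to show such a course.

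IDs last counted on 2 September were few and faint. Potri.014G032300 had 2, 3, 4 and 2 summer counts, Potri.012G086300 had 3, 3, 4 and 1, and each had 2 counts on 2 September. The leading IDs last counted on 9 September were Potri.011G087500, with 29, 5, 8 and 4 summer counts and then 3 on 5 September and 1 on 9 September, and Potri.009G164100, with 12, 6, 7 and 3 summer counts and 1 on 9 September. Potri.008G159800, last counted on 11 September, had 11, 14, 3 and 2 summer counts. Potri.018G086500, last counted on 15 September, had 23, 5, 21 and 6 summer counts and 3, 4, 4, 1, 0 and 1 in September.

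At the other end were IDs with a pooled September level above their pooled summer level. Among those with at least 15 September counts, Potri.004G063400 had the highest ratio, 1.38, with 3, 1, 3 and 2 summer counts and 0, 6, 3, 1, 4 and 1 counts in September. Potri.008G095100 had a ratio of 1.28, with 3, 3, 4 and 1 counts in summer and 3, 5, 5, 2, 2 and 0 in September. Potri.005G102800 had a ratio of 1.09, with 1, 8, 3 and 1 counts and then 7, 1, 8, 0, 1 and 0. By the mean over libraries Potri.005G102800 was instead lower in September, at 0.611 CPM against 0.766 CPM in summer. On these small counts the summer and September libraries overlapped for each of the 3 IDs.

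Within summer the set did not follow the date order. The level was highest on 27 July for 34.8% of the 270 IDs and on 19 August for 32.6%, against 14.4% on 5 August and 18.1% on 31 August. Among the other IDs counted on each summer date these shares were 27.6%, 24.5%, 25.9% and 22% on the same dates. Equal counts in 2 libraries give the higher level to the shallower one, 31 August being the shallowest and 5 August the deepest in summer, which bears on these shares for faint IDs. The level was lowest on 5 August for 123 IDs (45.6%) and on 31 August for 80 (29.6%). Among the others these shares were 30.4% and 26.2%. With 104 IDs of equal lowest counts left aside, 80 of the other 166 (48.2%) were lowest on 31 August and 49 (29.5%) on 5 August. Of the 17051 other summer IDs without such ties, 30.3% and 27.5% were. The order of the 2 dates thus turned on the ties, and an untied lowest count is itself likelier in the shallowest library. By 31 August, 177 IDs (65.6%) were below their level of 27 July, as were 54.1% of the others.

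The only libraries outside the choice allow a test of the course from 2 to 15 September. A linear slope of the level on the day was fitted over these 6 libraries for all 18206 IDs with at least 15 September counts, by edgeR's quasi-likelihood test with Benjamini-Hochberg adjustment at 0.05. Of the 270 IDs, 30 had enough counts and 240 were not tested. None of the 30 was called, and none of the 18206 was called lower (0%) or higher (0%). At an unadjusted p under 0.05, edgeR gave 2 of the 30, limma-voom gave 3 and DESeq2 gave 1, and over all 18206 IDs they gave 872, 977 and 416. Of the 30, 13 (43.3%) had an edgeR slope below 0, against 52.1% of all IDs, and these 30 are the IDs with the most September counts. With library totals alone the numbers were 12 of the 30 and 32.1% of all IDs. With no filter beyond 1 count the order was reversed. Then 160 of 245 IDs of the set (65.3%) had a slope below 0, against 54.2% of all IDs, most of the 245 on fewer than 15 counts. A missing call does not show that levels were steady.

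Both of the IDs with an unadjusted p under 0.05 in edgeR had slopes below 0. Potri.001G086900 had a slope of -0.39 log2 units per day (SE 0.12, edgeR adjusted p = 0.857), and its counts of 12 and 14 came on the first 2 of the 6 dates. Potri.004G015300 had a slope of -0.34 log2 units per day (SE 0.13, edgeR adjusted p = 0.996), with 15 of its 16 counts on those dates. Neither passed the adjusted threshold. Of the 3 IDs that limma-voom gave at an unadjusted p under 0.05, 1 had a slope below 0 and 2 had slopes above 0.

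The 270 IDs were spread over the numbered groups of the reference. By the number in the ID, the largest share was under the prefix 011, with 19 of 701 summer IDs (2.71%), followed by 019 with 11 of 525 (2.1%) and 004 with 21 of 1088 (1.93%). The smallest was under 008, with 9 of 1165 (0.773%). Neighbours were few. Of the 270, 23 (8.52%) had another member within 5 gene numbers, in 11 runs, and 5.96% of the other summer IDs had a member that close. The longest run was that of Potri.010G196700 to Potri.010G196900, with 3 IDs, and the other 10 were pairs.

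Some neighbours had like ratios of the pooled September to the pooled summer level. Potri.011G156300 and Potri.011G156700 had ratios of 0.869 and 0.831, the second from 4 summer counts. Potri.018G102000 and Potri.018G102200 had ratios of 0.325 and 0.378. In the run of 3, Potri.010G196700 and Potri.010G196800 had ratios of 0.0204 and 0.0178, and Potri.010G196900 had a ratio of 0.415 from 12 summer and 6 September counts. Potri.007G068000 and Potri.007G068200 had ratios of 0.0791 and 0.831, from 21 and 10 summer counts. These runs were chosen for mention after their values were seen, and likeness between neighbours was not tested. Promoter or protein sequences of these IDs were not used here.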

How the data were processed

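The deposited values are raw counts for 41335 IDs in 16 libraries, in a joint table and in single tables that held identical values. The submitters' processing notes list STAR 2.4, HTSeq, Trimmomatic 1.0, FastQC 1.0 and CASAVA 1.8.2, with no role for each. The genome build, the strand setting and the handling of multiply matching reads were not stated there. Members and lists were chosen with earlier results of these data known.

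Counts of 15 libraries were scaled by TMM over 15583 IDs (filterByExpr, minimum count 10, total 15). The slope was tested with edgeR 4.0.16 in R 4.3.3 on the 6 September libraries, after a check on simulated data, with limma 3.58.1 and DESeq2 1.42.0 as alternatives. Expected detection used Poisson probabilities, and thinning used exact hypergeometric probabilities. Intervals and floors (3 counts for a 0) cover counting error only, and the late floors do not allow for the choice of IDs on a late 0. P-values measure the scatter of single dates, which may be technical.

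Named IDs are the 10 of highest summer mean, the 2 highest for each last date and up to 10 with a called slope (there were none). Also named are the 3 with the highest ratio of pooled September to pooled summer level among those with at least 15 September counts. The 3 on each side of the rule's edge and the longest run complete them. The planned grouping by product names and the motif search need annotation and were not run.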

Additional observations from a re-analysis of the deposited data

Results flagged for a closer look

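Values of the named IDs and of the whole set were examined in 54 groups of 4 or 6 libraries. In 9 groups the highest or lowest library lay farther from its neighbour than Dixon's 95% limit allows. Under a normal distribution about 1 in 20 groups would do so, and counts near 0 do not follow one. The TMM-scaled sum of the set on 5 September, 145 CPM from 719 counts, stood apart from 89.9 CPM on the nearest date, 13 September. With library totals alone 5 and 13 September stood at 121 and 107 CPM, and the limit was not applied to those values. Potri.013G074400 stood at 2.22 CPM on 5 September from 11 counts, Potri.005G131100 at 1.21 CPM from 6 counts and Potri.011G087500 at 0.605 CPM from 3 counts on the same date. Potri.011G087500 was also apart on 27 July, at 7.26 CPM against 2.01 CPM on the nearest summer date. Potri.008G159800 stood at 1.24 CPM on 11 September and Potri.009G164100 at 0.207 CPM on 9 September, each from 1 count. Potri.014G032300 and Potri.012G086300 each stood at 0.419 CPM on 2 September from 2 counts.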

How the results depend on the processing

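The number of IDs rests on its thresholds. It was 55 and 5 with at least 3 and 10 counts in each summer library, 602 and 1318 with up to 1 and 3 late counts allowed, and 2535 with only 28 September and 1 October at 0. Leaving out 1 library gave 302 to 467 IDs, with 430 without 31 August, 467 without 18 September and 447 without 22 September. With 3 counts for detection, 138 IDs were detected after August, and the median last day of detection moved from day 48 (13 September) to day 40 (5 September) with 2 counts and day 37 (2 September) with 3. Thinned to 1 depth, 175 IDs were expected to be counted after August. The ratio of the September to the summer summed level was 0.284, and 0.44 with library totals alone. It was 0.331 without the 5 IDs of highest summer level and 0.251 to 0.315 without 1 library. No ID of the set had a called slope under any of the 13 alternatives that tested any. Over all IDs, 18 were called with no filter beyond 1 count, and 0 to 3 without 1 library. With filterByExpr no ID of the set was tested. Relative log expression for the slope and the counts after August without 1 library were chosen after seeing the data. No paired analysis was possible because each date has 1 library and the labels give no shared numbers.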
